A study of Mus musculus with 14 samples.

Results

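This comparison covers the inguinal fat of non-transgenic C57BL/6J mice that were infused either with saline (CON, 3 libraries) or with CGP, which activates the angiotensin type 2 receptor specifically (CON_CGP, 4 libraries). Its members are these 7 of the 14 RNA sequencing libraries of the series, chosen by their labels. CON held 2 males and 1 female, and CON_CGP 2 males and 2 females. None of these 7 mice carried a transgene. The other 7 libraries came from SRA mice, which are transgenic animals with an activated brain renin-angiotensin system, under saline (SRA, 3 libraries) or CGP (SRA_CGP, 4 libraries). The sources used here give neither age nor the dose and duration of the infusion. The labels do not say that each library is a separate mouse, so p-values measure only the spread between libraries. For the limma p-values of the main fit that spread was taken from all 14 libraries, those of the SRA mice included.

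Angiotensin II acts through type 1 and type 2 receptors, and the type 2 receptor often opposes the actions of the type 1 receptor. Inguinal fat is a subcutaneous depot of white adipocytes in which cells that burn fuel for heat can appear, and angiotensin receptors are found in fat tissue. An agonist given to mice without the transgene asks what the receptor does in this depot when the brain system is not driven.

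The values are the deposited normalized counts, as the authors' header calls them. They sum to between 79970748 and 79985973 in each library by a method that is not stated, so sequencing depth is unknown and no interval from read counts can be given. They were rescaled between libraries by the median of ratios and analysed as log2(value + 1), for the 31967 of 55419 transcripts whose mean over the 14 libraries reached 100. A fold change on this scale understates the change of low transcripts. Transcripts carry UCSC IDs of the mouse build mm9, and the files do not pair these with gene names, so transcripts are given by ID alone, the labelled tissue could not be checked against marker genes, and no pathway list was applied.

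CGP infusion of non-transgenic mice was followed by no transcript change that passed the test. The limma fit of all 14 libraries called 0 of 31967 transcripts at an adjusted p under 0.05 (0%), and the smallest limma adjusted p was 0.959. A limma fit of the 7 non-transgenic libraries alone also called 0, with a smallest adjusted p of 0.247. The counts that follow are from the fit of all 14. At an unadjusted p under 0.05 there were 1415 transcripts (4.43%), fewer than the 1598 that 5% of the tested transcripts would give. Of these, 1014 were higher under CGP (3.17%) and 401 were lower (1.25%). The median log2 difference over all transcripts was 0.02. In bulk tissue, fewer cells of a type and less RNA per cell cannot be told apart.

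The direction of the small differences followed the scaling. The share of the transcripts at unadjusted p under 0.05 that were higher was 71.7% after rescaling, 40.3% with the values as deposited and 63.0% after quantile normalization, and the overall median became -0.08 with the deposited values. The rescaling factors were 1.14, 1.03 and 1.16 in CON replicates 1 to 3, and 0.93, 1.13, 1.08 and 1.02 in CON_CGP replicates 1 to 4. Leaving out CON_CGP replicate 1 brought the share at unadjusted p under 0.05 to 2.50% of all transcripts, with 408 higher and 391 lower. Leaving out CON_CGP replicate 2 brought it to 7.41%, with 1825 higher and 543 lower, and leaving out CON replicate 1 brought it to 2.92%. limma called 0 in each of these fits.

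The intervals show how large a change remained possible in these libraries. The 95% interval of the log2 difference, taken for each transcript alone, had a median half-width of 0.43 (quartiles 0.30 and 0.64). It lay wholly within a 2-fold change in either direction for 25316 transcripts (79.2%) and within a 1.5-fold change for 15681 (49.1%). For 51 transcripts it lay wholly beyond a 1.5-fold change. These intervals are not adjusted for the number of transcripts. The median absolute log2 difference was 0.15. The median SD between libraries was 0.18 within CON (n = 3) and 0.26 within CON_CGP (n = 4).

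The spread among CGP libraries was widest around 1 male. The SD was larger in CON_CGP than in CON for 22100 transcripts (69.1%). Without CON_CGP replicate 1 the median SD of the CON_CGP libraries was 0.18, and without replicate 2, 3 or 4 it was 0.25, 0.27 and 0.28. The median distance of a library from the mean of the others in its group was 0.35 log2 units for CON_CGP replicate 1, against 0.16 to 0.24 for the other 3 CON_CGP libraries and 0.15 to 0.20 for CON.

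Libraries resembled each other by sex more than by infusion, except for male CON_CGP replicate 1. Pearson r over the 31967 log2 values ranged from 0.905 to 0.984 in the 9 pairs of the same sex, with a median of 0.956. In the 12 pairs of different sex it ranged from 0.885 to 0.936, with a median of 0.914. Pairs that joined a CON to a CON_CGP library had a median of 0.914 (12 pairs), close to the 0.917 within CON (3 pairs) and the 0.927 within CON_CGP (6 pairs). The closest pair of all crossed the infusion, since CON replicate 1 and CON_CGP replicate 2, both male, reached 0.984. CON_CGP replicate 1 was nearest to female CON_CGP replicate 4 (r = 0.929), above its 0.905 to 0.912 with the other males. These correlations are across transcripts, which are not independent replicates, and are given as a description.

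Principal components of the 7 libraries gave the same order. The first held 44.1% of the variance, with the 3 females at 52.1 to 71.6 and the 4 males at -77.9 to 0.798. The second held 28.7% and set CON_CGP replicate 1 apart at -110, with the other 6 libraries at -2.14 to 38.1. The groups overlapped on both components.

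**Figure D1:**
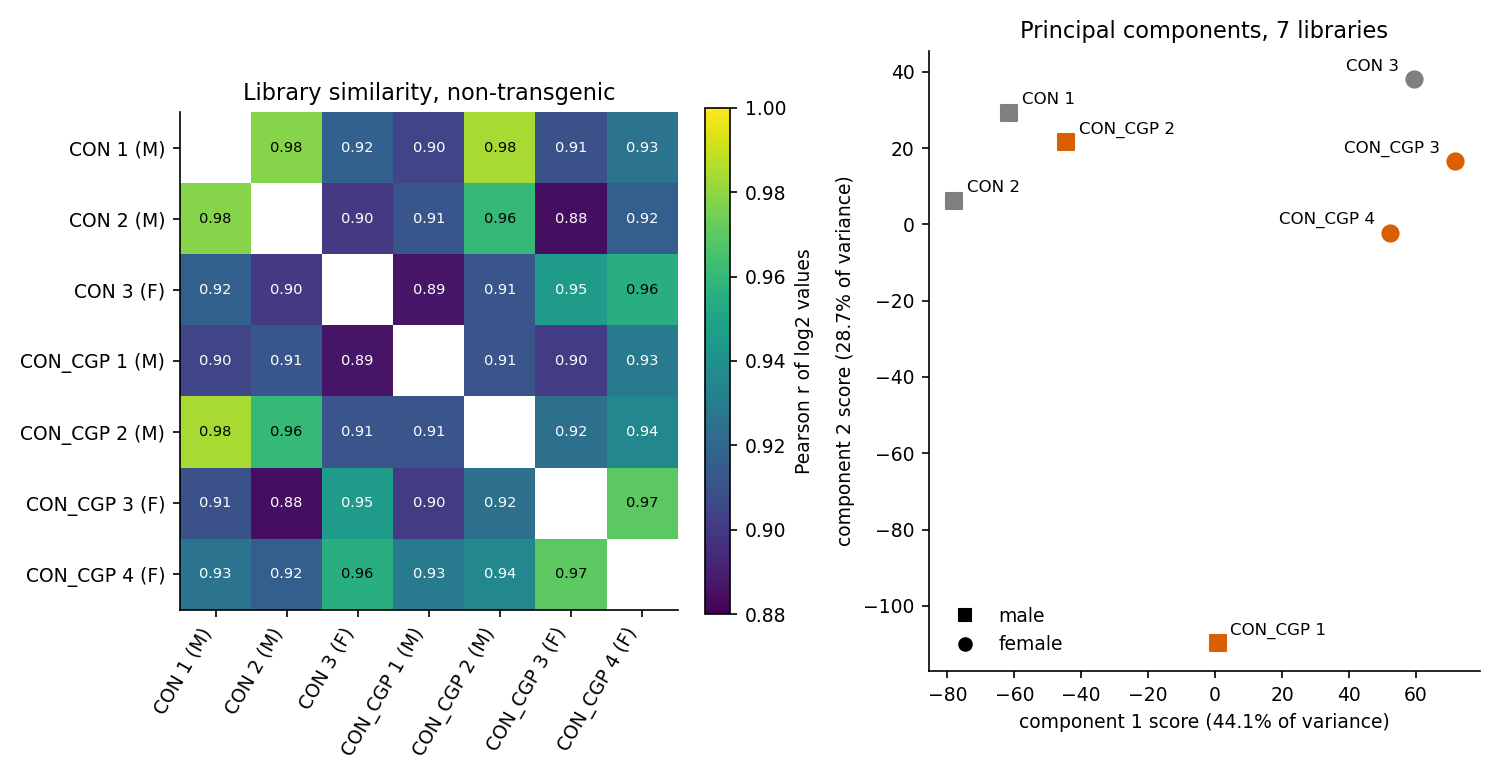
Left, Pearson r of log2 values between each pair of the 7 non-transgenic libraries (M male, F female). Right, scores on the first and second principal component, with grey for CON and orange for CON_CGP. Females lie at 52.1 to 71.6 on the first component and CON_CGP replicate 1 lies at -110 on the second.

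Some libraries held transcripts that were chosen here as higher in the other sex. A set of 12 male transcripts and a set of 49 female transcripts were chosen from these data as at 100 or more in every library of 1 sex, lower in every library of the other, and at most 1 in the lowest library of the other. Without gene names, neither set is known to be sex-linked, and transcripts of the other sex means these sets only. The male set summed to 18985 to 26923 in the 4 males of this comparison. It summed to 34 in female CON_CGP replicate 3, 1117 in female CON replicate 3 and 2268 in female CON_CGP replicate 4. The female set summed to 23759 to 51743 in the 3 females, to 83, 543 and 551 in 3 of the males, and to 3177 in male CON_CGP replicate 1. Across the series 6 libraries, 3 of them among these 7 (CON replicate 3, CON_CGP replicates 1 and 4), had the other sex's set at over 3% of its median in that sex. Without the 6 libraries, an unadjusted p under 0.05 was found for 2.69% of the transcripts (350 higher, 511 lower), and limma called 0. What part this has in the other results was not tested.

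The estimate, with a sex term fitted over all 14 libraries, passed 2-fold for 538 transcripts, of which 467 were higher and 71 lower under CGP. Within each sex the balance did not lean upward, with 726 higher and 761 lower among males (2 against 2) and 453 higher and 623 lower among females (2 against 1). Past 2-fold in both sexes, 230 were higher and 9 lower. Among the 467, 132 had an unadjusted p under 0.05 and 175 did not overlap between the groups. Over all tested transcripts, 3.17% and 3.87% did so with CGP higher. Of the 71, 10 and 6 did, against 1.25% and 2.87% of all tested with CGP lower. The 467 and the 71 were picked by their estimate in this same contrast, which raises such counts, so they are a description. For 22 of the 71, CON replicate 2 stood at 2-fold or more over both other CON libraries.

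Many of those 467 were transcripts that were most abundant in a library outside the comparison. A set of 252 transcripts, chosen after the values were seen, stood in SRA replicate 3, a male saline library, at 10-fold or more over each of the other 13 libraries. That library entered the filter on low values and raised the mean of these transcripts. How many would have passed without it was not tested. They made up 9.32% of the total of SRA replicate 3. In CON they made up 0.049%, 0.046% and 0.053% of the totals in replicates 1, 2 and 3. In CON_CGP they made up 0.055%, 0.092%, 0.125% and 0.104% in replicates 1 to 4. All 4 CGP values were thus above the 3 saline values, though CON_CGP replicate 1 lay just above CON replicate 3. In the SRA mice, saline replicates 1 and 2 were at 0.067% and 0.071%, above CON_CGP replicate 1, and SRA_CGP replicates 1 to 4 were at 0.51%, 0.072%, 0.572% and 0.127%.

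Of these 252 transcripts, 150 were past 2-fold higher in CON_CGP, which is 59.5% of the set and 32.1% of the 467. The log2 differences of the set ran from -0.59 to 7.77, with a median of 1.25, and limma called 0 of its transcripts. SRA replicate 3, the only male in SRA, entered the sex term of these estimates and the spread behind the calls. The 150, the median and the 0 calls thus do not rest on the 7 libraries alone. Differences within each sex do, with a median for the set of 0.74 among males and 1.76 among females. Within the set, the log2 level in a library correlated with that in SRA replicate 3 at r = 0.699, 0.841, 0.861 and 0.869 in CON_CGP replicates 1 to 4, at 0.424, 0.329 and 0.403 in CON replicates 1 to 3, and at 0.712 and 0.745 in SRA replicates 1 and 2 (252 transcripts, a description). Outside the set, 317 transcripts were past 2-fold higher, of which 74 did not overlap between the groups. Among the 317, the highest of the 4 CON_CGP libraries was replicate 3 for 194, replicate 1 for 86, replicate 4 for 37 and replicate 2 for 0. For 120 of the 317, 1 CON_CGP library stood at 2-fold or more over the other 3. Of the 317, 33 belonged to the 49 transcripts of the female set, whose sum was 3177 and 543 in the CGP males against 551 and 83 in the saline males, which overlapped, and lower in the CGP females (25158 and 23759 against 51743).

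**Figure D2:**
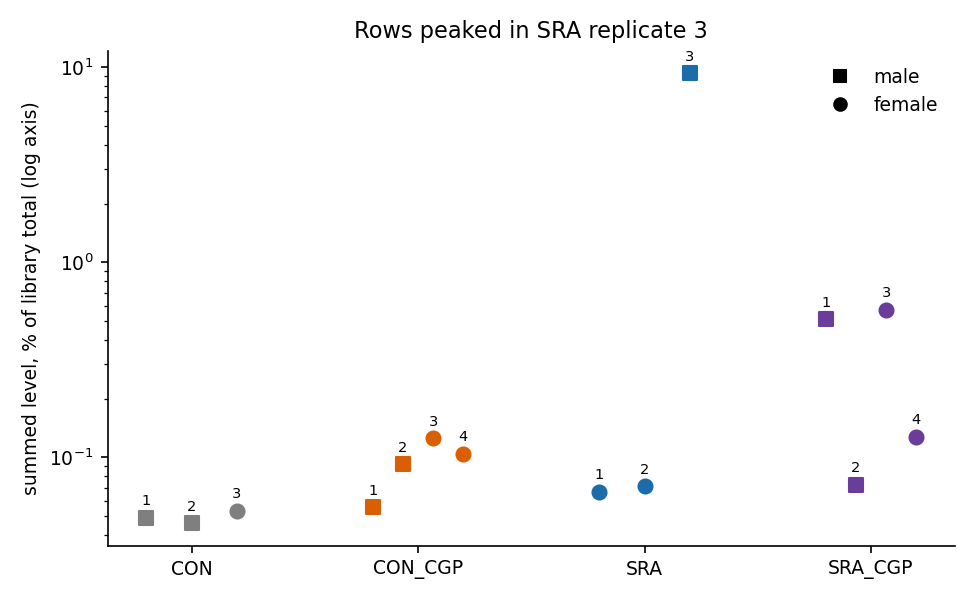
Summed level of the 252 transcripts that stood highest in SRA replicate 3, as a percent of the library total (log axis), in each of the 14 libraries, labelled by replicate number. SRA replicate 3 lies at 9.32%, the 3 CON libraries at 0.046% to 0.053% and the 4 CON_CGP libraries at 0.055% to 0.125%.

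The differences tilted upward with transcript level after rescaling. Among 16481 transcripts with a mean of 100 to under 1000 the median log2 difference was -0.01, with 411 higher and 320 lower at unadjusted p under 0.05. Among 14591 with a mean of 1000 to under 10000 it was 0.04, with 543 higher and 75 lower. Among 895 with a mean of 10000 or more it was 0.14, with 60 higher and 6 lower. As deposited, the 3 medians were -0.12, -0.06 and 0.04. Quantile normalization, which forces the libraries to 1 distribution, gave medians of -0.01, 0.00 and -0.02, which do not rise with level. At unadjusted p under 0.05 it gave 388 higher and 300 lower in the lowest band, 390 and 160 in the middle one, and 40 and 20 in the highest. No band held a call by limma.

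The 200 most abundant transcripts had a median log2 difference of 0.24, 83.0% of them were higher under CGP, and 0 were called. They held 20.5%, 27.8% and 20.4% of the total in CON replicates 1 to 3, and 26.9%, 20.5%, 24.0% and 28.0% in CON_CGP replicates 1 to 4, so the groups overlapped. Their median was 0.00 after quantile normalization, which gives every library the same values at its highest ranks. A median near 0 is thus largely built in and cannot test the difference.

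**Figure D3:**
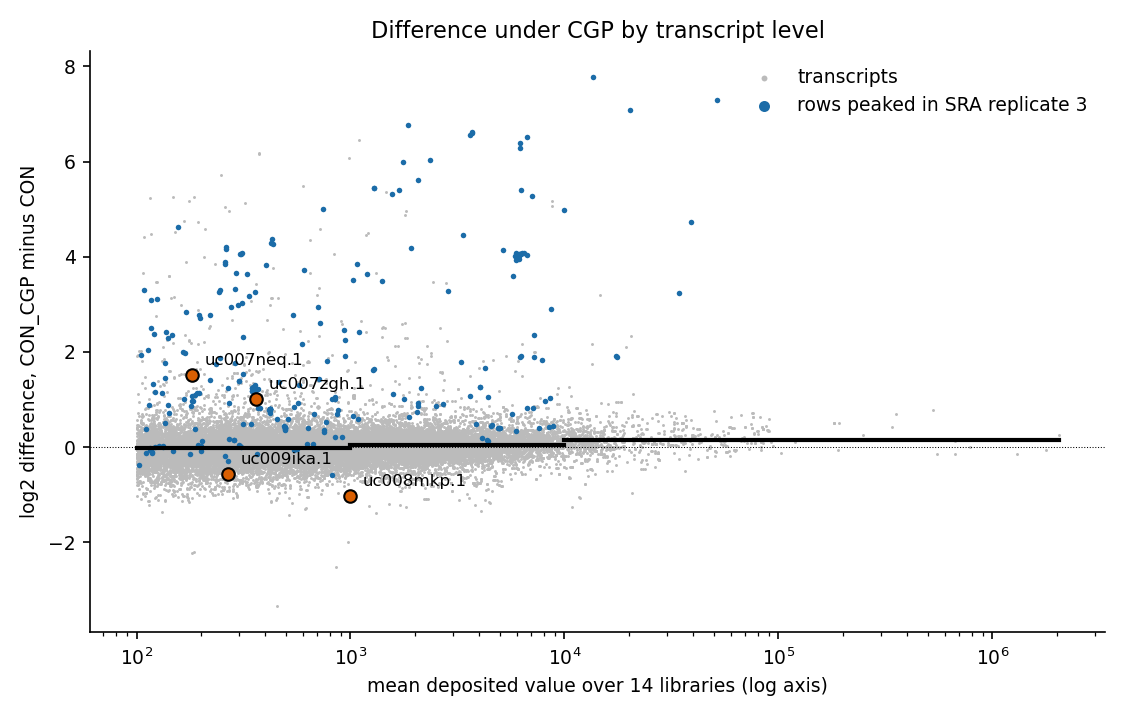
Log2 difference between CON_CGP and CON against the mean deposited value over 14 libraries (log axis), 1 point per transcript, with the 252 transcripts that stood highest in SRA replicate 3 in blue and 4 named transcripts in orange. Black lines are the medians of 3 level bands, at -0.01, 0.04 and 0.14.

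The 4 CGP libraries lay above all 3 saline libraries for 1238 transcripts (3.87%) and below them for 918 (2.87%). An exact two-sided permutation test of 4 against 3 cannot go below p = 0.0571, so none of these could pass alone. With the values as deposited the balance turned, with 561 higher and 1317 lower. Of the 1238, 108 were in the set that stood highest in SRA replicate 3, which left 1130.

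By the naming rule, the transcripts with the smallest p in each direction are described next. They were chosen by this same contrast, so their differences here are a description, and none passed.

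uc007zgh.1 stood higher under CGP. Its rescaled values were 218, 154 and 302 in CON replicates 1 to 3, and 517, 454, 425 and 379 in CON_CGP replicates 1 to 4. The groups did not overlap, and each CGP library was above the highest saline library. Means were 225 ± 74.3 (SD, n = 3) and 444 ± 57.8 (SD, n = 4), and the log2 difference was 1.00 ± 0.20 (SE), or 2.01-fold (limma adjusted p = 0.959). It was 1.40 among males (2 against 2) and 0.41 among females (2 against 1). Over the 20 alternatives the log2 difference ran from 0.78 to 1.40, with limma adjusted p from 0.655 to 1.

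uc007neq.1 stood higher mainly in the CGP males. It was at 115, 112 and 85.3 in CON replicates 1 to 3. In CON_CGP the males, replicates 1 and 2, were at 485 and 402, and the females, replicates 3 and 4, at 196 and 120. The lowest CGP value lay just above the highest saline value, so the rescaled groups did not overlap but nearly met. As deposited they overlapped, with CON_CGP replicate 4 at 122 and CON replicate 1 at 131. Means were 104 ± 16.2 (SD, n = 3) and 301 ± 171 (SD, n = 4), with a log2 difference of 1.52 ± 0.32 (SE; limma adjusted p = 0.959). The difference was 1.95 among males and 0.84 among females. A further 2 transcripts ran parallel to it, with a log2 ratio that varied by at most 0.5 over the 14 libraries, and may share its reads.

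uc008mkp.1 stood lower under CGP. Its values were 1752, 1536 and 2359 in CON replicates 1 to 3, and 834, 1331, 680 and 796 in CON_CGP replicates 1 to 4. CON_CGP replicate 2 was the highest of its group and came near the lowest saline library. Means were 1882 ± 427 (SD, n = 3) and 910 ± 288 (SD, n = 4), with a log2 difference of -1.03 ± 0.23 (SE; limma adjusted p = 0.959). This value leaned on CON replicate 3, since it was -0.68 without that library. It was -0.64 with males only and -0.38 without the 6 libraries that held transcripts of the other sex.

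uc009ika.1 showed the tightest CGP group of the 4. It was at 381, 367 and 297 in CON replicates 1 to 3 and at 237, 233, 211 and 225 in CON_CGP replicates 1 to 4. All CGP values were below all saline values. Means were 348 ± 44.8 (SD, n = 3) and 226 ± 11.1 (SD, n = 4), with a log2 difference of -0.57 ± 0.13 (SE; limma adjusted p = 0.959). It was -0.67 among males and -0.45 among females, and over the 20 alternatives it stayed between -0.67 and -0.54. A further 3 transcripts ran parallel to it.

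**Figure D4:**
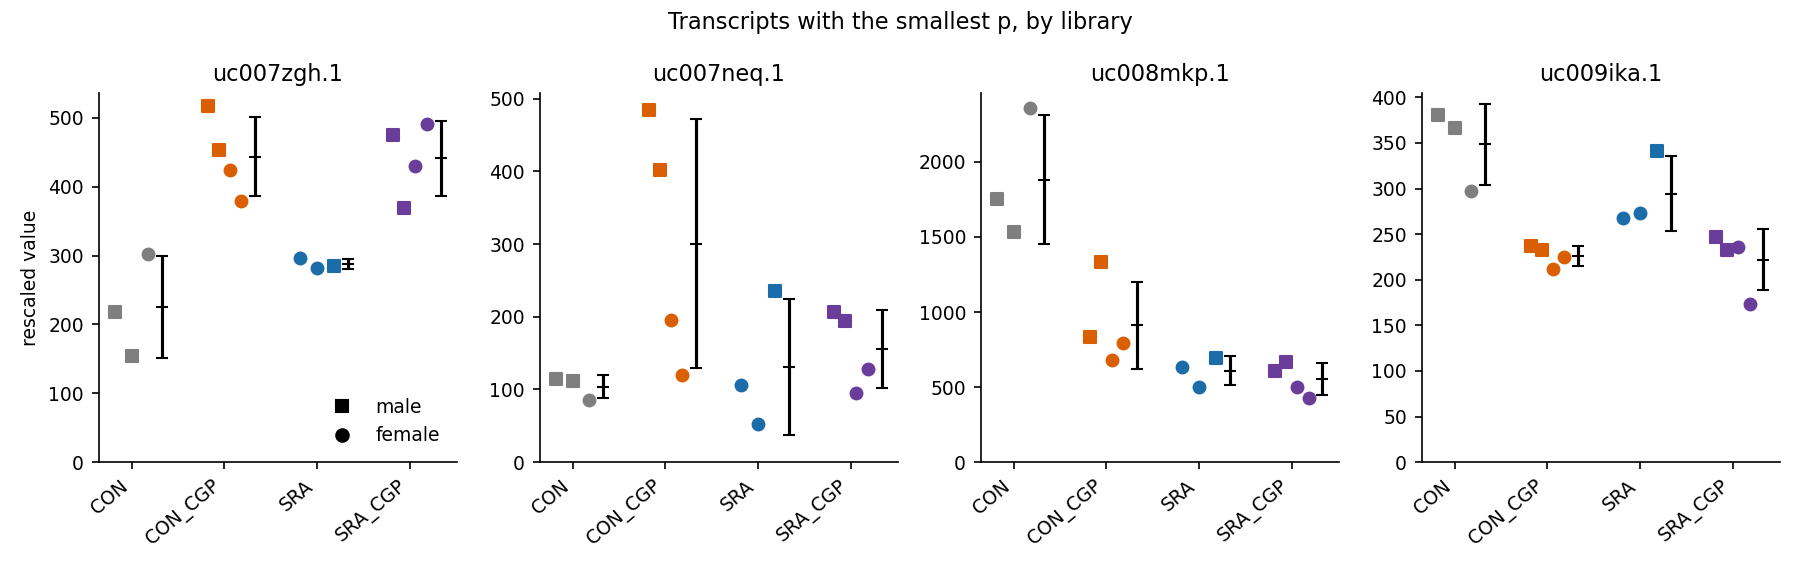
Rescaled values of the 4 named transcripts in each library (squares male, circles female) of the 4 groups, with the group mean ± SD in black. The CON_CGP points do not overlap the CON points in any panel, and in uc007neq.1 the lowest CON_CGP value (120) is just above the highest CON value (115).

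The contrast between SRA_CGP and SRA uses none of these 7 libraries. It is not wholly independent of the choice of the 4 transcripts, since the fit that ranked them took its spread and its sex term from all 14 libraries. uc007zgh.1 was at 281 to 296 in SRA (n = 3) and 369 to 492 in SRA_CGP (n = 4), without overlap. Its log2 difference there was 0.62 ± 0.20 (SE), with an exact two-sided permutation p of 0.0571, the smallest this design allows, and a limma adjusted p of 0.727. uc009ika.1 was at 268 to 342 in SRA and 173 to 247 in SRA_CGP, also without overlap. Its log2 difference was -0.45 ± 0.13 (SE; exact two-sided permutation p = 0.0571, limma adjusted p = 0.727). For both transcripts, the rescaled values of the 8 CGP libraries of the series did not overlap those of the 6 saline libraries. As deposited, uc009ika.1 overlapped across genotypes, with CON_CGP replicate 2 at 262 and SRA replicate 1 at 256.

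For the other pair the intervals in SRA mice spanned 0. uc007neq.1 was at 52.0 to 235 in SRA and 94.8 to 206 in SRA_CGP, with a log2 difference of 0.25 (95% interval -0.45 to 0.95; exact two-sided permutation p = 0.629). uc008mkp.1 was at 501 to 692 in SRA and 429 to 668 in SRA_CGP, with a log2 difference of -0.19 (95% interval -0.69 to 0.30; exact two-sided permutation p = 0.457). All 7 transgenic values of uc008mkp.1 were below all but 1 of the 7 non-transgenic values, the exception being CON_CGP replicate 3 at 680.

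The interaction term asked whether CGP acted differently in the 2 genotypes. It gave 0 limma calls (0%), with 1318 transcripts (4.12%) at an unadjusted p under 0.05. For the 4 named transcripts the limma adjusted p of the interaction was 0.927 to 0.951. The smallest p with a response higher in SRA mice was that of uc009dkm.2. Its values were 2514, 2934 and 2959 in CON and 1878, 2541, 1878 and 2324 in CON_CGP, which overlapped narrowly. It was at 1436 to 1589 in SRA and 1999 to 2833 in SRA_CGP, and the responses differed by a log2 value of 0.93 ± 0.21 (SE; limma adjusted p = 0.927). Without the 6 libraries that held transcripts of the other sex this was 0.52.

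In the other direction the smallest p was that of uc008hqg.1. It was at 1412, 1484 and 1549 in CON and 1834, 1554, 1786 and 1724 in CON_CGP, where CON_CGP replicate 2 lay next to the highest saline value. In SRA it was at 1951 to 2179 and in SRA_CGP at 1530 to 1783. The groups of each genotype did not overlap, in opposite directions, and the responses differed by a log2 value of -0.50 ± 0.11 (SE; limma adjusted p = 0.927). With the values as deposited the responses differed by -0.32, and CON (1530 to 1798) and CON_CGP (1706 to 1934) overlapped. A further 916 transcripts had a log2 ratio to uc008hqg.1 that varied by at most 0.5 over the 14 libraries. uc008hqg.1 itself ranged only from 1412 to 2179, so nearly flat transcripts can meet this limit. They need not share its opposite directions.

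**Figure D5:**
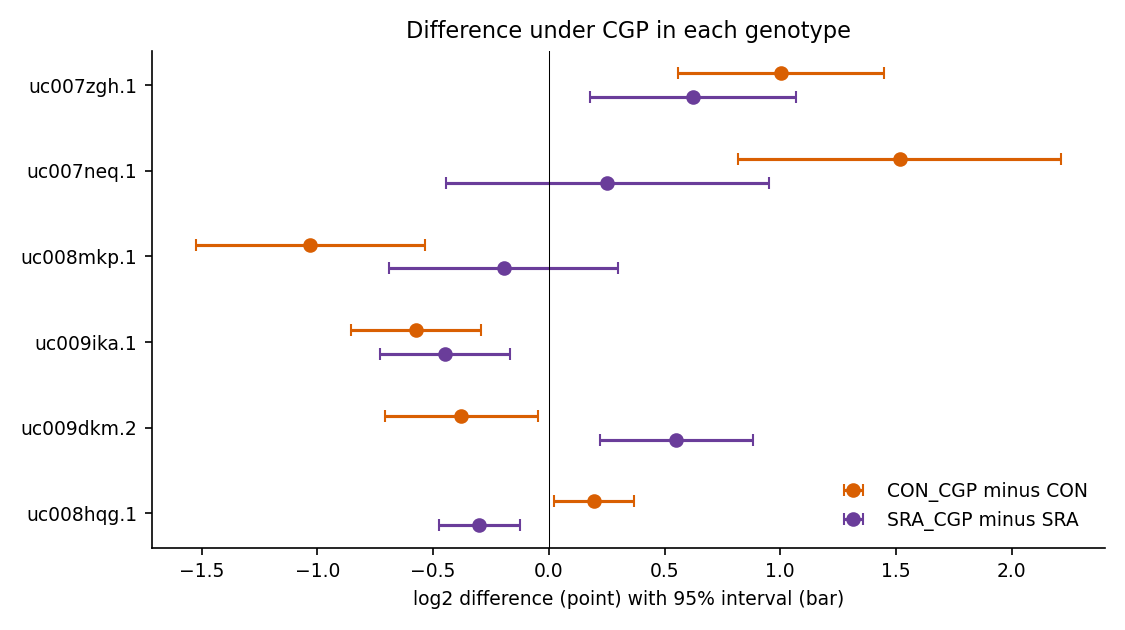
Log2 difference between CGP and saline with its 95% interval, in non-transgenic mice (orange) and SRA mice (purple), for the 4 transcripts named for the CGP contrast and the 2 named for the interaction. uc007zgh.1 and uc009ika.1 lie on the same side of 0 in both genotypes, and uc009dkm.2 and uc008hqg.1 on opposite sides.

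In SRA mice 2182 transcripts (6.83%) had an unadjusted p under 0.05 under CGP and limma called 0 (0%). Over all transcripts the CGP differences of the 2 genotypes correlated weakly. Pearson r was 0.036 and Spearman rho 0.128 over 31967 transcripts, with each genotype fitted alone with a sex term (a description across transcripts that vary together). Both values take in the 252 transcripts that stood highest in SRA replicate 3, a library of this comparison in SRA mice. Values without these transcripts are not given here, so how far that library lowers the correlation is unknown. In the same separate fits, 792 (60.3%) of the 1314 transcripts at unadjusted p under 0.05 in non-transgenic mice had the same direction in SRA mice, against 52.3% of all tested transcripts. Of the 1238 that stood higher without overlap in CON_CGP, 92 also did so in SRA_CGP, which is 7.43% of the former and 9.32% of the 987 such transcripts in SRA mice (3.09% of all tested). Of the 918 that stood lower, 35 also did so, which is 3.81% of them and 3.46% of the 1013 in SRA mice (3.17% of all tested).

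Within the non-transgenic mice, the sexes gave differences that resembled each other weakly. The median log2 difference was 0.02 among males (2 against 2) and 0.02 among females (2 against 1), and the male and female differences had an r of 0.317 and a rho of 0.189 over transcripts. Outside the set that stood highest in SRA replicate 3, r was 0.174 and rho 0.181. Males had 1487 transcripts past 2-fold, 726 of them higher, and females 1076, 453 of them higher. Of these, 230 were higher in both sexes and 9 lower in both, together 16.1% of the male and 22.2% of the female transcripts. The set that stood highest in SRA replicate 3 held 105 of the 230. With 1 female in CON, the female difference had no replicate check on its saline side.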

How the data were processed

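RNA of inguinal fat was sequenced after Trizol and column purification, DNase treatment and indexing, per the labels' protocols. The submitters' processing notes name FastQC, Bowtie, edgeR and mm9. How reads were counted and normalized is not stated there. The deposited table holds a whole-number score per transcript and library, called a normalized count per the file headers. Among values from 1 to 30, 0 whole numbers were missing in any library. Summed over libraries, 5 were much rarer than the whole numbers next to them. No gap of whole reads was thus seen, and no count model was run. Each column was tied to its sample by the number in the description, and 0 columns were left over. Of 55419 transcripts 7183 were at 0 in all libraries, and 0 of the IDs could be matched to symbols, so the planned marker lists were not applied.

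Rescaling used the median of ratios over the 39907 transcripts without zeros. limma 3.58.1 in R 4.3.3 fitted all 14 libraries with a term per group and for sex, with robust moderation and a trend, two-sided, adjusted by Benjamini-Hochberg over the 31967 tested transcripts, which hold 99.5% of the total. Named transcripts were the 2 with the smallest p in each direction, since fewer than 5 passed, and 1 in each direction for the interaction. Near copies within 0.1 log2 units were skipped. The fit was tested on simulated data. The members and lists were chosen with earlier results of these data known. Alternatives were other scalings, pseudocounts, filters, fits and left-out libraries.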

Additional observations from a re-analysis of the deposited data

Results flagged for a closer look

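uc009dkm.2 had a value of 2833 in SRA_CGP replicate 2, far from the 1999, 2024 and 2042 of the other 3 SRA_CGP libraries, by Dixon's gap test at 95%, which flags about 1 in 20 groups by chance and here flagged 1 of 17 sets of values. After rescaling, uc008hqg.1 moved in opposite directions under CGP, with every CON_CGP library above every CON library and every SRA_CGP library below every SRA library. As deposited, CON (1530 to 1798) and CON_CGP (1706 to 1934) overlapped. The transcript was named for its small interaction p, so its opposite directions restate how it was chosen. The interaction had a log2 value of -0.50 and did not pass (limma adjusted p = 0.927).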

How the results depend on the processing

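limma called 0 transcripts for CGP in non-transgenic mice and for the interaction under every alternative run, with the smallest adjusted p at 0.247 (the 7 non-transgenic libraries alone) and 0.0599 (without SRA_CGP replicate 3), and the 6 named transcripts kept their direction in all of them. At a mean of at least 1000, those below that mean were not tested. The share of transcripts at unadjusted p under 0.05, 4.43% for CGP and 4.12% for the interaction, moved to 1.62% and 7.94% with males only, where SRA is left with 1 library (replicate 3, assumed to vary like the other groups), and to 2.69% and 1.84% without the 6 libraries that held transcripts of the other sex, where fewer libraries entered the fit. With the replicate block it was 5.34% and 6.78%. Leaving out 1 library gave 2.50% to 7.41% for CGP and 2.26% to 6.98% for the interaction. Transcripts without overlap numbered 561 higher and 1317 lower with the values as deposited, which turned the balance of 1238 and 918, and 1633 to 2923 higher and 1240 to 2314 lower when 1 library was left out, where fewer values have to separate. The alternatives without the 6 libraries and, for CGP, without SRA replicate 3 (4.72%) were chosen after seeing the data. Same-numbered libraries of CON and CON_CGP did not deviate together in pairs 1 and 2 once sex was removed (r = -0.277 and -0.237). Pair 3 had r = 0.189, above the criterion of 0.1, and only pair 3 was the best match. As this did not hold in every pair, the replicate numbers were not taken as pairs. Depth is unknown, so a limit for low transcripts cannot be set from counts.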
